A study of Homo sapiens with 40 samples.

Results

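The response of the mantle cell lymphoma line JEKO1 to the BET inhibitor OTX015 was read from the 10 arrays of that line among the 40 arrays of the series. They hold 5 arrays of JEKO1 cells exposed to OTX015 (also called MK-8628) and 5 of JEKO1 cells given DMSO, the vehicle, 1 array per treatment at 2, 4, 8, 12 and 24 h. The other 30 arrays hold the same 10 conditions in GRANTA519, MAVER1 and REC1, 3 more established lines of this lymphoma. Each is labelled only by line, treatment and time, and the sources used here do not give the dose of OTX015. Total RNA of whole cultures was hybridised as biotin-labelled cRNA to Illumina bead arrays, so a gene's value is the brightness of its probe on a log2 scale after background correction and quantile normalization. Every change below compares an OTX015 array with its DMSO partner, matched for line and time, as OTX015 minus DMSO on the log2 scale, and the mean of the 5 differences is the effect in a line. No time has a repeat, so the SD and the tests take their error from how the times differ within the lines, which says nothing about repeat cultures. In whole-culture RNA, fewer cells of a kind and less RNA per cell cannot be told apart.

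BET proteins bind acetylated histones through bromodomains and help RNA polymerase II move from pausing into elongation, partly by recruiting the kinase P-TEFb. OTX015 occupies the bromodomains and displaces these proteins from chromatin. Mantle cell lymphoma is a B cell cancer, usually with a translocation that raises cyclin D1, and its cells often rely on B cell receptor and NF-kB signals.

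JEKO1 arrays carried the markers of a B cell. Of 10 B cell markers 8 had a tested probe, and all 8 were detected in JEKO1. Their summed linear signal was 5544 to 13680 on OTX015 arrays, against 13980 to 15600 on DMSO arrays. SOX11, a transcription factor typical of this lymphoma, was detected on all 10 JEKO1 arrays, whereas the tested CCND1 probe and the CD5 probe were detected on 0 of 10. Of the markers of other cell types, 3 of 11 T and NK, 4 of 10 myeloid, 4 of 9 erythroid and 6 of 9 stromal genes passed the detection filter. Of these 0 rose and 2 fell, CD7 (-0.39) and PECAM1 (-1.43). The summed signal of the stromal list, which includes VIM, was 1661 to 2710 on OTX015 arrays, against 1693 to 2281 on DMSO arrays, and the other 3 lists summed to at most 174 on any JEKO1 array. Their part in the results was not tested. All 40 arrays correlated best with another array of their own line. The JEKO1 OTX015 arrays at 12 h and 2 h had the highest backgrounds of the line, 113.2 and 108.8, and the fewest probes detected, 35.3% and 36.3%, against 39.6% to 43.5% on the DMSO arrays of JEKO1. Of 68 named differences between JEKO1 and the other lines, 29 lost their call without the 12 h arrays and 7 without the 2 h arrays. Those 29 are listed with the differences in the closing section. Here and below, a time left out was left out of all 4 lines, which also leaves fewer differences to fit. The part of these JEKO1 arrays in the lost calls therefore cannot be told apart.

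OTX015 moved many genes in JEKO1 in both directions. Of 13740 genes, 1477 rose (10.7%) and 1860 fell (13.5%) in limma's moderated test at an adjusted p of 0.05. Of these, 105 rose (0.764% of genes tested) and 360 fell (2.62%) by 2-fold or more on average. With each array scaled to its median in place of quantile normalization, which moved the median of all genes by -0.0594, the split was 765 rises and 2033 falls. Among genes detected on all 10 JEKO1 arrays it turned, with 1428 rises and 1334 falls. That filter leaves out genes that fell below detection with OTX015 or rose from below it, so the turn is not read as a result. Without the 12 h arrays of every line 896 rose and 1189 fell, and without 8 h 925 rose. The sign was the same at 5 of 5 times for 1209 of the rises and 1475 of the falls. In the other lines 11.9% and 12.4% of genes rose and fell in GRANTA519, 11.2% and 10.7% in MAVER1, and 7.82% and 7.63% in REC1.

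Much of the response was shared. Of the 1477 genes that rose in JEKO1, 847 (57.3%) also rose in GRANTA519, 820 (55.5%) in MAVER1 and 661 (44.8%) in REC1. These made up 51.8%, 53.1% and 61.5% of the genes that rose in those lines. Of the 1860 falls, 944 (50.8%), 868 (46.7%) and 667 (35.9%) were also called in GRANTA519, MAVER1 and REC1, which is 55.3%, 58.8% and 63.6% of the falls of those lines. Of the 105 rises of 2-fold or more, 69 were called upward in all 3 other lines, and of the 360 such falls 132 were called downward in all 3. Another 11 of these rises and 50 of these falls were called in no other line. A call in 1 line and not in another is no test of a difference, which the next comparison makes.

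The difference itself was tested as the JEKO1 effect minus the mean effect of the other 3 lines. It was positive for 230 genes (1.67%) and negative for 543 (3.95%). Median scaling gave 149 and 620. Among the positive genes 102 rose in JEKO1 itself, and among the negative ones 390 fell in it. Without the 12 h arrays of every line the test called 69 and 141 genes. It called 103 and 284 without 4 h, 99 and 278 without 8 h, and 128 and 357 without GRANTA519. Without MAVER1 324 were negative. Without 12 h all 230 and all 543 kept their sign. Their median difference was then 0.556 against 0.563 for the positive genes and -0.589 against -0.632 for the negative ones. These genes were called with 12 h included and both fits share the other times, so the kept signs are no independent check. The median standard error was larger without 12 h, at 0.148 against 0.131 for the positive genes and 0.156 against 0.139 for the negative ones. A stricter reading, a difference from each other line singly, left 19 genes higher and 88 lower in JEKO1.

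Genes that rose more in JEKO1 than in the other lines included PARP16, NNAT and DPYSL3. PARP16, an ADP-ribosyltransferase of the endoplasmic reticulum membrane, had a log2 signal of 8.02, 8.66, 7.24, 7.15 and 6.96 at 2 to 24 h with OTX015, against 6.46, 6.86, 6.52, 6.23 and 6.37 with DMSO. All OTX015 arrays were above all DMSO arrays, with the widest gaps at 2 and 4 h. The effect was 1.12 ± 0.53 (SD, n = 5 times, adjusted p = 1.87e-05) in JEKO1, against -0.17 in GRANTA519, -0.38 in MAVER1 and -0.32 in REC1, where none of the 3 was called. The difference was 1.41 (SE 0.17, adjusted p = 0.000125), and 1.43 without 12 h (adjusted p = 0.00358). The neuronatin gene NNAT rose by 0.87 ± 0.26 in JEKO1 (adjusted p = 5.13e-05), against 0.01 in GRANTA519, 0.02 in MAVER1 and 0.09 in REC1, with a difference of 0.82 (SE 0.14, adjusted p = 0.00327). SSTR1, a somatostatin receptor, rose by 1.06 ± 0.68 in JEKO1 (adjusted p = 0.0435), against -0.75 in GRANTA519, -0.30 in MAVER1 and -0.13 in REC1. Its difference of 1.45 (SE 0.31, adjusted p = 0.0113) was the largest among the rises chosen from genes detected in all 4 lines, but was lost when 2 h, 4 h or GRANTA519 was left out, with an adjusted p of up to 0.0928 over the alternatives.

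DPYSL3, a cytoskeletal protein of growing nerve cells, was close to background on DMSO arrays of JEKO1 and climbed over the whole course. Its signal was 6.09, 7.29, 7.67, 7.68 and 8.22 with OTX015, against 4.33, 5.14, 4.66, 4.43 and 4.50 with DMSO, so every OTX015 value exceeded every DMSO value. The differences of 1.76, 2.15, 3.01, 3.25 and 3.72 at 2, 4, 8, 12 and 24 h gave an effect of 2.78 ± 0.81 (adjusted p = 4.67e-10), the highest in JEKO1. In GRANTA519 the gene was detected on all 10 arrays, at 9.10 to 9.61, and differed by 0.14. In MAVER1 and REC1 it was detected on 0 arrays, so it was not well above background there. The difference from the other lines was 2.69 (SE 0.20, adjusted p = 3.55e-07).

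**Figure D1:**
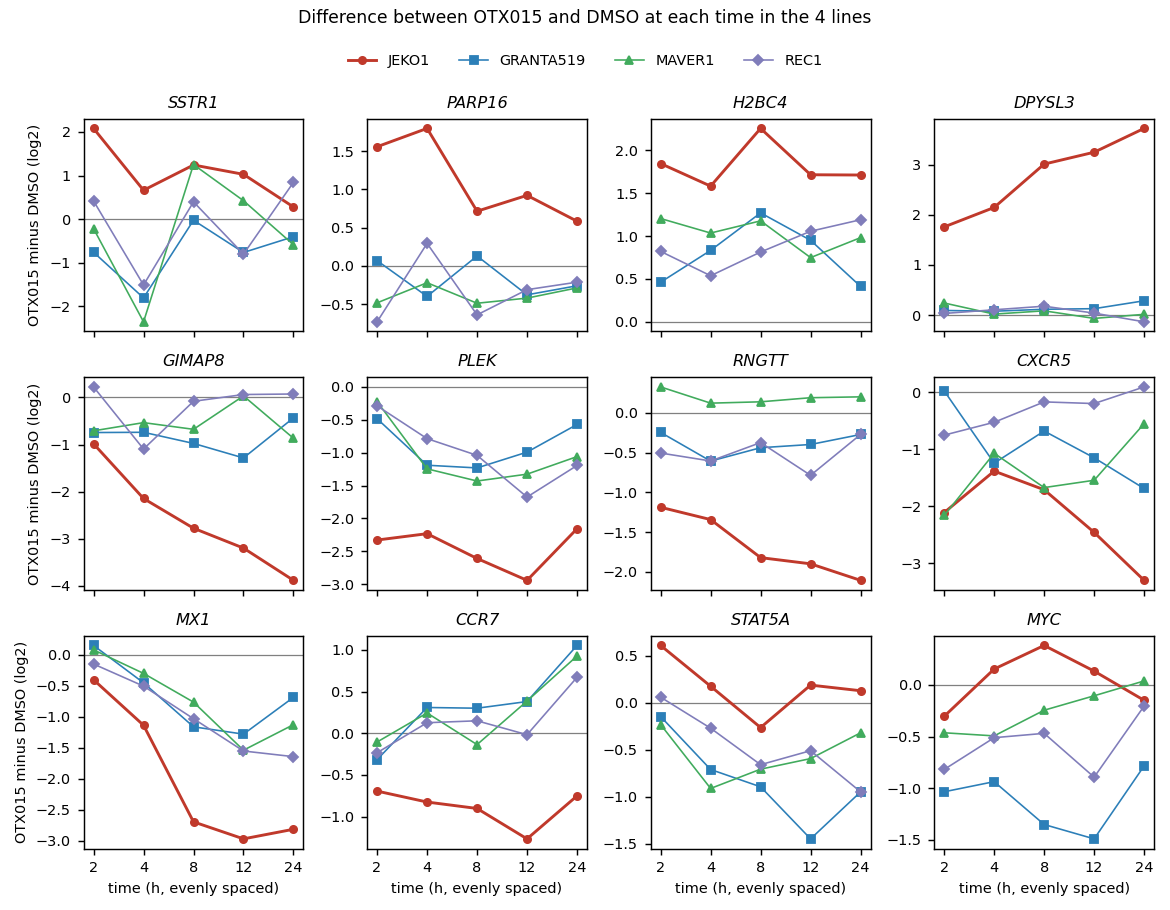
OTX015 minus DMSO (log2, vertical axis) at 2, 4, 8, 12 and 24 h (horizontal axis, evenly spaced) for 12 genes, with 1 line per cell line and 1 point per pair of arrays. PARP16, DPYSL3 and H2BC4 run above the other lines in JEKO1, GIMAP8, PLEK, RNGTT and CCR7 run below them, and STAT5A and MYC stay near 0 in JEKO1.

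Of the genes that differed from the other lines, 390 fell in JEKO1 itself, and GIMAP8, IGLL1, PLEK and RNGTT had the lowest differences among those chosen from genes detected in all 4 lines. RNGTT, the enzyme that caps new messenger RNA, had a signal of 9.63, 9.13, 8.96, 8.84 and 8.50 with OTX015, against 10.82, 10.47, 10.77, 10.74 and 10.61 with DMSO. The groups did not overlap, and the gap widened with time from the 2 h pair on. The effect was -1.67 ± 0.39 (adjusted p = 1.57e-09), against -0.39 in GRANTA519, 0.20 in MAVER1 and -0.51 in REC1. The difference was -1.44 (SE 0.12, adjusted p = 2.58e-06), with -1.40 and an adjusted p of 0.000254 without 12 h. It was called under every alternative setting, among them each other line singly.

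GIMAP8, a GTPase of a family expressed in lymphocytes, showed a fall that deepened at each time. Its signal was 8.38, 7.58, 6.39, 5.59 and 5.38 with OTX015, against 9.36, 9.72, 9.16, 8.79 and 9.26 with DMSO. The lowest DMSO value was above the highest OTX015 value, and the differences were -0.98, -2.15, -2.78, -3.20 and -3.88 in order of time. Its effect was -2.60 ± 1.10 (adjusted p = 4.67e-07), against -0.84 in GRANTA519, -0.55 in MAVER1 and -0.17 in REC1, and the difference was -2.08 (SE 0.30, adjusted p = 0.000718). On DMSO arrays of the other lines it was dimmer, at 4.71 to 6.48.

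PLEK encodes pleckstrin, a substrate of protein kinase C in blood cells. Its signal was 6.29, 6.0, 4.76, 4.39 and 5.14 with OTX015, against 8.62, 8.23, 7.37, 7.33 and 7.30 with DMSO, and 3 of 5 OTX015 arrays detected it. Again the groups were apart, at every time by over 2 on the log2 scale. The effect was -2.45 ± 0.32, against -0.89 in GRANTA519, -1.06 in MAVER1 and -1.0 in REC1, and the difference was -1.47 (SE 0.14, adjusted p = 9.04e-06). This difference was lost without background correction and with the submitters' series matrix values, and over all alternatives it ranged up to -0.353 with an adjusted p of up to 0.0969.

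Other genes with a deeper fall in JEKO1 were 2 regulators of small GTPases, a peptide transporter and a lipid hydrolase. ARHGEF3, an activator of small GTPases, changed by -1.48 ± 0.58 in JEKO1, against -0.19 in GRANTA519, -0.27 in MAVER1 and -0.24 in REC1, with a difference of -1.25 (SE 0.16, adjusted p = 0.000198). ARHGAP25, which switches Rac off in blood cells, changed by -2.16 ± 0.18, with a difference of -1.15 (SE 0.14, adjusted p = 0.000174) that was lost when all its probes were averaged. ABCB9, a peptide transporter of lysosomes, changed by -1.31 ± 0.34 in JEKO1 yet rose by 0.85 in REC1, with a difference of -1.34 (SE 0.15, adjusted p = 4.37e-05). PAFAH2, which hydrolyses oxidised phospholipids, was detected on 0 of 5 OTX015 arrays and 5 of 5 DMSO arrays of JEKO1. With the lowest detected signal as a floor it was at least 2.64-fold lower. CXCR5, the receptor that guides B cells to follicles, changed by -2.19 ± 0.74, against -0.95 in GRANTA519, -1.40 in MAVER1 and -0.31 in REC1. Its difference of -1.30 (SE 0.30, adjusted p = 0.0168) was lost without 8 h, 12 h or REC1 (adjusted p = 0.108 without 12 h), as was that of MIR155HG (-1.21, host transcript of a B cell microRNA) without 8 or 12 h.

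CCR7, CD44 and SOCS2, picked out here after their values were seen, fell in JEKO1 and were called in no other line. CCR7, the receptor that draws lymphocytes into lymph nodes, had a signal of 7.69, 7.41, 7.28, 6.91 and 7.95 with OTX015, against 8.39, 8.23, 8.18, 8.17 and 8.70 with DMSO. At each time the OTX015 value was lower, and the highest OTX015 value (24 h) was below the lowest DMSO value. The effect was -0.89 ± 0.23 (adjusted p = 0.000346) in JEKO1, against 0.35 in GRANTA519, 0.26 in MAVER1 and 0.14 in REC1, none of which was called. The difference was -1.14 (SE 0.13, adjusted p = 0.000101), and -1.04 without 12 h (adjusted p = 0.00391). CD44, a hyaluronan receptor of migrating cells, changed by -0.85 ± 0.23 with a difference of -0.77 (SE 0.10, adjusted p = 0.000347), and SOCS2, a feedback inhibitor of cytokine signals, changed by -0.71 ± 0.12. SOCS2 was detected on 1 MAVER1 array and 0 REC1 arrays, so a fall could not be measured in those lines.

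Of all genes that fell in JEKO1, 2 rose in at least 2 other lines, ZBTB42 and DECR2, and 0 of those that rose in JEKO1 fell in 2 others. ZBTB42, a zinc finger protein of the BTB family, had a signal of 7.12, 7.37, 6.95, 7.25 and 8.01 with OTX015, against 7.60, 7.96, 7.62, 7.60 and 8.20 with DMSO. The ranges overlap, with both 24 h arrays high, while every pair had the lower value with OTX015. It changed by -0.46 ± 0.19 (adjusted p = 0.00576), against 1.01 in GRANTA519, 0.58 in MAVER1 and 0.48 in REC1, all called as rises, with a difference of -1.15 (SE 0.11, adjusted p = 1.35e-05). DECR2, a peroxisomal reductase of fatty acid breakdown, changed by -0.45 ± 0.37 in JEKO1, against 0.37 in GRANTA519, -0.11 in MAVER1 and 0.59 in REC1, and its difference was not called against each line singly.

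MYC, the growth regulator often studied as a target of BET inhibition, was high in JEKO1 and not called there. Its signal was 11.61, 11.63, 11.85, 11.72 and 11.54 with OTX015, against 11.91, 11.48, 11.47, 11.59 and 11.69 with DMSO. The OTX015 range lay within the DMSO range, with the OTX015 value lower at 2 and 24 h and higher at 4, 8 and 12 h. The effect was 0.04 ± 0.27 (adjusted p = 0.848), against -1.12 in GRANTA519, -0.25 in MAVER1 and -0.58 in REC1, of which GRANTA519 and REC1 passed. The difference was 0.69 (SE 0.13, adjusted p = 0.00558), but 0.46 with an adjusted p of 0.0783 without GRANTA519, and 0.63 (adjusted p = 0.0457) without 12 h. MLX, a partner in the MYC network, differed by 0.51 (adjusted p = 0.0259, or 0.146 without 12 h). Of 33 MYC targets and ribosome biogenesis genes, 1 rose and 9 fell in JEKO1, beside 10.7% and 13.5% of all genes. Their median was -0.141, against -0.291, -0.256 and -0.158 in GRANTA519, MAVER1 and REC1.

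STAT5A, a transcription factor activated by cytokine receptors, fell in the other lines and was not called in JEKO1. Its signal was 6.3, 5.80, 5.34, 5.40 and 5.71 with OTX015, against 5.69, 5.62, 5.60, 5.21 and 5.59 with DMSO. The ranges overlapped, and the signs were mixed over the times. The effect was 0.17 ± 0.31 (adjusted p = 0.483), against -0.83 in GRANTA519, -0.55 in MAVER1 and -0.47 in REC1, and the difference of 0.79 (SE 0.14, adjusted p = 0.00298) was called under every alternative. JEKO1 also started lower, with a DMSO mean of 5.54 against 6.38 to 7.68 on DMSO arrays of the other lines. CCND3, a D-type cyclin, changed by 0.18 ± 0.22 in JEKO1, against rises of 0.71 in GRANTA519, 0.79 in MAVER1 and 0.59 in REC1. Its difference of -0.52 (adjusted p = 0.0188) was lost without 12 h (adjusted p = 0.125), 4 h, 8 h or MAVER1.

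**Figure D2:**
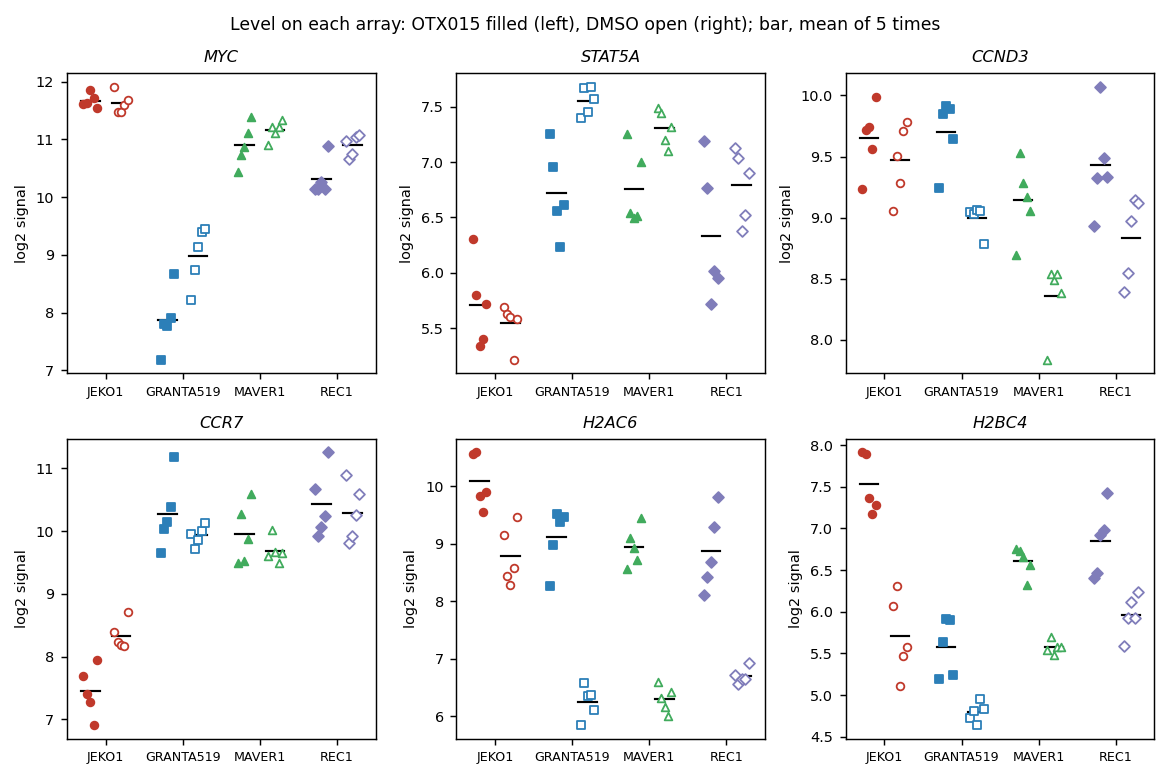
Normalized log2 signal (vertical axis) of 6 genes on the 40 arrays, by cell line (horizontal axis). In each line OTX015 (filled) is left of DMSO (open), with points in order of time within each arm and a bar at the mean of 5 times. In JEKO1 the arms overlap for MYC and STAT5A, and lie apart for CCR7, H2AC6 and H2BC4.

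Several genes that moved in all 3 other lines were at or near background in JEKO1. Among the 230 genes with a positive difference, 22 were called downward in all 3 other lines and not in JEKO1, and among the 543 with a negative one 31 were called upward in them and not in JEKO1. CD300A, an inhibitory receptor of white blood cells, was detected on 0 of 10 JEKO1 arrays and changed by -1.85 in GRANTA519, -1.0 in MAVER1 and -1.83 in REC1. With no signal above background in JEKO1, a fall could not be measured there. SLC45A3, a solute carrier, was likewise detected on 0 of 10. For NLRP7, a member of the NOD-like receptor family, the tested probe was detected on 0 of 10, and another of its probes on 5 of 10. Detection on 0 of 10 arrays also held for FCRL3 and FCRL4, Fc receptor-like proteins of B cells, and for the cytokine IL7. TLR6, a receptor for bacterial lipopeptides, was dim, with 0 of 5 OTX015 and 3 of 5 DMSO arrays detected. It changed by -0.57 ± 0.33 in JEKO1, where background bounds the size, against -1.83 in GRANTA519, -1.42 in MAVER1 and -1.32 in REC1. On the other side, TSPOAP1, IQCN and LSMEM1 rose in all 3 other lines and changed by 0.15, 0.13 and 0.17 in JEKO1, where between 1 and 5 of 10 arrays detected them. CITED2, a transcriptional coregulator, changed by 0.20 ± 0.22 in JEKO1, against rises of 1.21 in GRANTA519, 0.68 in MAVER1 and 1.09 in REC1, and its difference was lost without 2 h, 4 h, 8 h or GRANTA519.

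Replication-dependent histone genes rose as a group in JEKO1. They encode the core and linker histones made in S phase from short, unspliced messages, and most lie in clusters where H2A and H2B genes stand head to head. Of 51 listed genes 46 were measured, and 40 rose and 0 fell, beside 10.7% and 13.5% of all genes. Their median effect was 1.25, against 0.778 in GRANTA519, 0.86 in MAVER1 and 0.605 in REC1, and against -0.0016 over all genes in JEKO1. Median scaling left 39 rises with a median of 1.13. Many of these genes are near copies, so a probe may read more than 1 of them. H3C14, H3C15 and H4C16, named in the closing section, were not among the 51 listed.

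Within the group JEKO1 was above the other lines for some genes and below for others. Against the mean of the other lines 13 histone genes were higher and 6 lower, beside 1.67% and 3.95% of all genes. The effect was larger in JEKO1 for 33 of 46. The 13 were dim on JEKO1 DMSO arrays, with a median of 5.25 (4.75 to 6.17) against 4.73 in the other lines. The 6 were already high on JEKO1 DMSO arrays, with a median of 9.72 (8.78 to 12.2) against 7.58. Both counts moved with the processing. They were 24 and 3 without background correction, 23 and 2 with the series matrix values, and 10 and 6 with median scaling. Without 12 h they were 12 and 1, beside 69 and 141 of all 13740 genes. Among the 26 histone genes measured in all 4 lines they were 5 and 6, and against each other line singly 6 and 0.

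The clearest contrast was between neighbours. H2AC6 and H2BC4 are divergent genes on chromosome 6 whose starts lie 246 bases apart, so nearly all of 1 stretch serves as promoter to both. The RefSeq sequence of the 250 bases before the start of H2AC6 (GRCh38.p14, chr6:26123922-26124171, + strand) is shown because both genes read outward from it, and the 250 bases before H2BC4 overlap it by 245. Capitals mark, on either strand, the TATA box letters TATAAA, the CCAAT box and the octamer letters TTTGCAT.
H2AC6 promoter: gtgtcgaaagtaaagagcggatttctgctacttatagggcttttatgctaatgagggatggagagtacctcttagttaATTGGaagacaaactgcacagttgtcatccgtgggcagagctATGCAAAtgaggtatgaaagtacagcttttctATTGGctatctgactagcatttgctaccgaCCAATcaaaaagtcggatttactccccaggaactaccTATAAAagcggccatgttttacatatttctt
CACGTG, also searched on both strands, does not occur in it. Among the 250-base promoters of the 42 measured histone genes with a sequence, 29 (69%) hold TATAAA, 34 (81%) CCAAT and 20 (47.6%) TTTGCAT. Over all 27305 promoters of the table the shares are 11.1%, 33% and 3.98%, and none of the stretches in capitals shares a base with another.

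H2AC6, an H2A gene, had a signal of 10.56, 10.59, 9.83, 9.55 and 9.90 with OTX015, against 9.15, 8.43, 8.28, 8.58 and 9.46 with DMSO. OTX015 values were higher at every time and all above the DMSO range, and the gap was widest at 4 h and narrowest at 24 h. The effect was 1.30 ± 0.64 (adjusted p = 0.000128), against 2.87 in GRANTA519, 2.65 in MAVER1 and 2.16 in REC1. Its difference of -1.26 (SE 0.24, adjusted p = 0.00603) was -1.12 without 12 h (adjusted p = 0.0663), and it was also lost with the series matrix values. On DMSO arrays of the other lines H2AC6 stood at 5.84 to 6.93.

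H2BC4, its H2B neighbour, had a signal of 7.92, 7.89, 7.37, 7.18 and 7.29 with OTX015, against 6.07, 6.31, 5.11, 5.46 and 5.58 with DMSO. All OTX015 values were above all DMSO values, and the gap was similar at the 5 times. The effect was 1.82 ± 0.26 (adjusted p = 1.69e-09), against 0.79 in GRANTA519, 1.03 in MAVER1 and 0.88 in REC1, with a difference of 0.92 (SE 0.13, adjusted p = 0.000616) that was called under every alternative. So the same stretch of promoter stood beside a smaller rise in JEKO1 for H2AC6 and a larger one for H2BC4, 2.18 apart on the log2 scale. In the 5 other divergent pairs the differences of the 2 genes were 0.0427 to 0.828 apart in size. H2BC9 also rose more in JEKO1, by 1.32 ± 0.39 with a difference of 0.98 (SE 0.14, adjusted p = 0.000728).

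**Figure D3:**
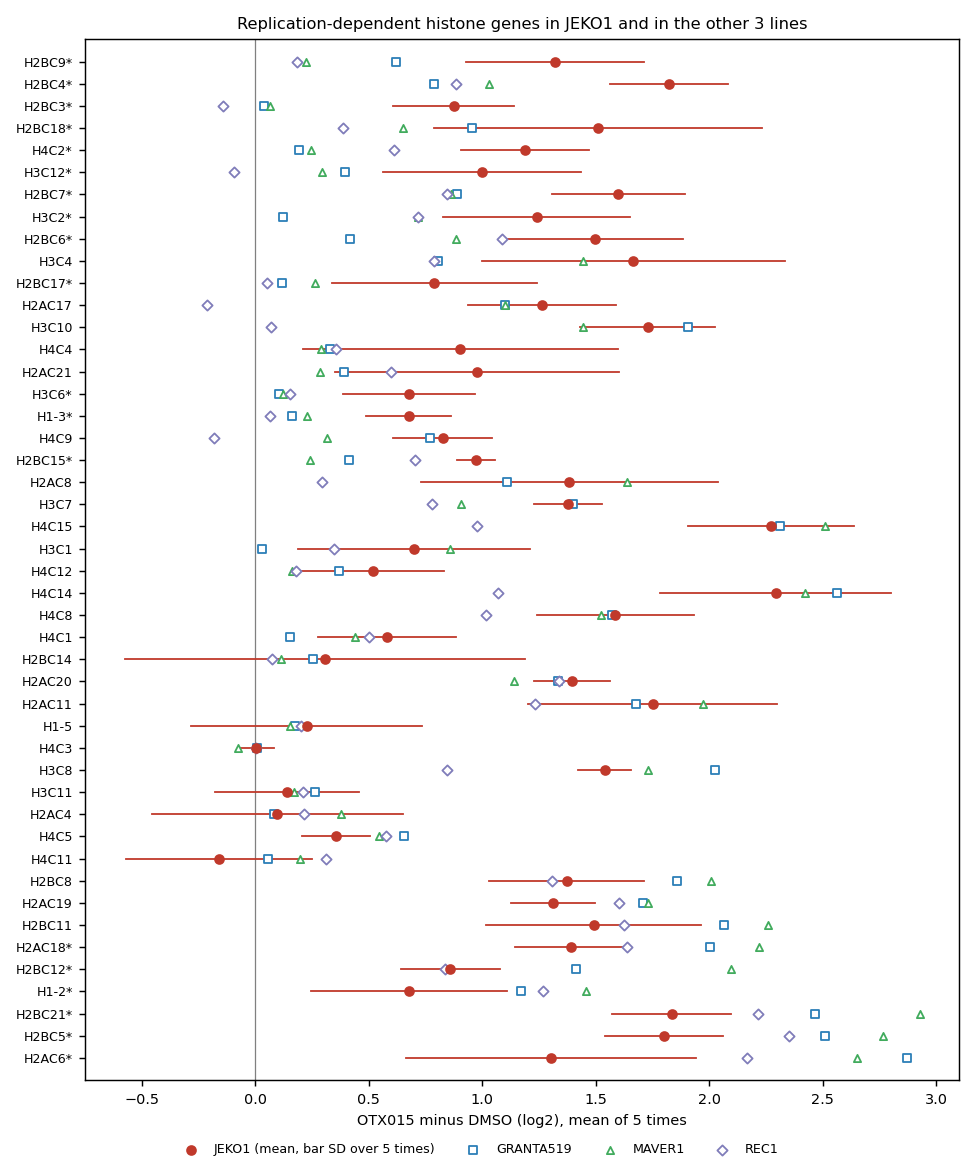
OTX015 minus DMSO (log2, horizontal axis, mean of 5 times) of the 46 measured genes of the replication-dependent histone list, ordered by JEKO1 minus the other lines. The SD over 5 times is a bar for JEKO1, with 1 open symbol per other line. An asterisk marks an adjusted p under 0.05 for JEKO1 minus the other lines. The 13 higher genes so marked lie toward the top with unmarked genes between them, and the 6 lower ones at the bottom, where H2AC6 is last.

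Some genes that fell in JEKO1 were detected in no other line. There were 29 genes that fell in JEKO1 and 4 that rose while none of the 30 arrays of the other lines detected them. These are 1.56% of the 1860 falls and 0.271% of the 1477 rises in JEKO1. Of all genes tested 13.5% fell and 10.7% rose, shares of another total that cannot be set against these. The share called among all genes detected in JEKO1 alone is not given here. The 29 and 4 genes passed the detection filter through JEKO1 arrays alone, some through 1 arm. A fall could not be measured in the other lines, and the balance of falls and rises is not read as a result. MYF6, a transcription factor of skeletal muscle, had a signal of 4.56, 4.75, 4.67, 5.22 and 4.75 with OTX015, where no array detected it, against 6.67, 6.48, 6.53, 6.79 and 6.46 with DMSO. The groups lay far apart at each time, and the fall was at least 2.88-fold. The others with the largest falls were WNT5A, a secreted signalling protein (-1.81), BBOX1, an enzyme of carnitine synthesis (-1.76), NOS3, the endothelial nitric oxide synthase (-1.30), LAMA2, a laminin chain (-1.09) and TBX15, a limb and skeletal transcription factor (-1.02). LRRC38 and CPNE5 changed by -1.28 and -1.11. The 4 that rose were TSSC2, GLIDR, OR6C76 and OR6C75, by 0.85, 0.61, 0.52 and 0.46, the last not called without 12 h (adjusted p = 0.154).

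CDHR3, a cadherin-related membrane protein, had the lowest effect of all genes called in JEKO1 at 5 of 5 times. Its signal was 9.24, 7.76, 5.84, 4.62 and 5.77 with OTX015, against 10.12, 9.89, 10.17, 10.29 and 10.33 with DMSO. DMSO values were steady and high, and OTX015 values dropped to near background by 12 h. The effect was -3.51 ± 1.95 (adjusted p = 1.42e-06), and 1 of 30 arrays of the other lines detected the gene. CDC42BPB, a kinase that acts on the cytoskeleton, changed by -2.49 ± 1.17 in JEKO1, against 0.62 in GRANTA519, 0.02 in MAVER1 and 0.10 in REC1. It was detected on 19 of 30 arrays of the other lines, with a DMSO mean of 5.02 there against 7.56 in JEKO1. A fall could therefore not be measured in every other line.

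VPREB1 and MME, both known from early B cells and picked out after their values were seen, fell in JEKO1. VPREB1, a chain of the surrogate light chain of precursor B cells, had a signal of 5.35, 4.26, 4.44, 4.20 and 4.44 with OTX015, against 6.87, 6.60, 6.62, 6.57 and 6.91 with DMSO. Every OTX015 value was below every DMSO value, and 1 of 5 OTX015 and 5 of 5 DMSO arrays detected it. The effect was -2.18 ± 0.38 (adjusted p = 1.98e-11) and 1 of 30 other arrays detected the gene, so a fall could not be measured in the other lines. MME, the membrane peptidase CD10, changed by -1.19 ± 0.77 in JEKO1 (adjusted p = 3.54e-05) and was detected on 1 of 30 other arrays. IGLL1, the partner of VPREB1, changed by -2.11 ± 1.41, but its probes disagree. Its difference from the other lines was -1.47, 0.266 when all probes were averaged, and not called without 12 h (adjusted p = 0.0795).

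Other large changes in JEKO1 were shared with the other lines. TUFT1, first known from tooth enamel, rose by 2.21 ± 0.27 in JEKO1, against 2.46 in GRANTA519, 2.32 in MAVER1 and 1.87 in REC1, and with 0 DMSO arrays detected it was at least 3.53-fold higher. SERTAD1, a regulator of CDK4 and E2F, rose by 2.71, 2.17, 1.70, 1.59 and 1.0 in order of time. EFR3B, a membrane anchor of a lipid kinase, changed by 0.07, 2.53, 3.38, 2.96 and 3.08, so its rise began after 2 h. This holds for 1 of its 3 probes. Another, detected on 8 of 10 JEKO1 arrays, gave 0.00749, and the third, detected on 0, gave -0.16. TNFRSF17 (BCMA), a survival receptor of late B cells, changed by -3.07 ± 0.29 and was detected on 0 of 5 OTX015 arrays, at least 5.6-fold lower. TLR10 (-2.88), FCMR, the receptor for IgM (-2.90), and SLC2A5, a fructose transporter (-2.85), were among the lowest too, and their larger falls than in the other lines were not called without 12 h. The list of BET proteins, P-TEFb and its regulators, in which SERTAD1 was counted, had 15 measured genes. Of these 6 rose and 1 fell in JEKO1, beside 10.7% and 13.5% of all genes. With median scaling 3 rose, beside 765 of all 13740 genes. BRD2 changed by 0.44 ± 0.04 and CDK9, the kinase of P-TEFb, by 0.47 ± 0.24. HEXIM1, an inhibitor of P-TEFb, was not called at 0.33 ± 0.55.

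The B cell receptor list had 31 measured members, of which 1 rose and 17 fell in JEKO1, beside 10.7% and 13.5% of all genes, with a median of -0.641, against -0.517 in GRANTA519, -0.267 in MAVER1 and -0.263 in REC1. CD79A, a signalling chain of the receptor, had a signal of 11.22, 11.27, 10.21, 9.57 and 9.67 with OTX015, against 11.55, 11.79, 11.38, 11.50 and 11.57 with DMSO. The groups were apart, and the gap was small at 2 h and wide at 12 and 24 h. Its effect was -1.17 ± 0.75 and its difference -0.77 (SE 0.16, adjusted p = 0.0103), with an adjusted p of 0.102 without 12 h. BTK, the kinase targeted by ibrutinib, changed by -1.07 ± 0.78 in JEKO1, against -0.52 in GRANTA519, -0.28 in MAVER1 and -0.63 in REC1. CD72, an inhibitory coreceptor, changed by -2.81 ± 1.6, against -1.45 in GRANTA519, -2.24 in MAVER1 and -1.38 in REC1. In this list 6 genes were lower in JEKO1 than in the other lines, beside 3.95% of all genes. None of the 6 was called without 12 h, where 141 of all 13740 genes were lower.

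MHC class II genes, which present peptides to helper T cells, fell for 12 of 16 measured members and rose for 0, beside 13.5% and 10.7% of all genes. The median was -0.87 in JEKO1, against -0.737, -0.357 and -0.0623 in GRANTA519, MAVER1 and REC1. HLA-DMA, which loads peptides onto class II molecules, had a signal of 10.44, 10.44, 9.48, 8.06 and 8.81 with OTX015, against 10.92, 11.05, 10.48, 10.44 and 10.78 with DMSO. It was lower with OTX015 at every time, most at 12 and 24 h, and the ranges met at 10.44. CIITA, the activator of these genes, changed by -1.30 ± 0.10 in JEKO1, against -1.51 in GRANTA519, -0.53 in MAVER1 and 0.02 in REC1. The differences called for HLA-DMA (-1.04), HLA-DPB1 (-0.88) and HLA-DRA (-0.67) all missed the threshold without 12 h (adjusted p = 0.0922, 0.0624 and 0.183). Of 20 chemokine receptor and adhesion genes 1 rose and 11 fell (median -0.635). In this list 6 were lower than in the other lines, beside 3.95% of all genes. Without 12 h 2 were lower, beside 141 of all 13740 genes.

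Of 36 interferon-response genes measured, 1 rose and 16 fell in JEKO1, or 10 without 12 h, and 8 had a negative slope over time. Over all genes 10.7% rose, 13.5% fell and 1.90% had a negative slope, and without 12 h 1189 of all 13740 genes fell. The list had a median of -0.305, against -0.321, -0.289 and -0.103 in GRANTA519, MAVER1 and REC1. MX1, an antiviral GTPase, had a signal of 9.08, 8.67, 6.78, 5.98 and 7.06 with OTX015, against 9.48, 9.80, 9.47, 8.95 and 9.87 with DMSO. The OTX015 value was the lower at every time, by most from 8 h on, and only the 2 h OTX015 array reached into the DMSO range. The effect was -2.0 ± 1.16 (adjusted p = 7.29e-05), against -0.69 in GRANTA519, -0.73 in MAVER1 and -0.98 in REC1, with a difference of -1.21 (SE 0.17, adjusted p = 0.000379) that was called under every alternative. IFITM1, an antiviral membrane protein, changed by -1.61 ± 0.96, with a difference of -1.14 (SE 0.11, adjusted p = 6.94e-06). The exception was IRF7, a transcription factor of the interferon response, which rose by 1.01 ± 0.34 in JEKO1, against 1.57 in GRANTA519, 1.83 in MAVER1 and 1.26 in REC1. In all, 10 of the list were lower in JEKO1 than in the other lines and 0 higher, beside 3.95% and 1.67% of all genes. Without 12 h the list had 3 and 0, beside 141 and 69 of all 13740 genes.

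**Figure D4:**
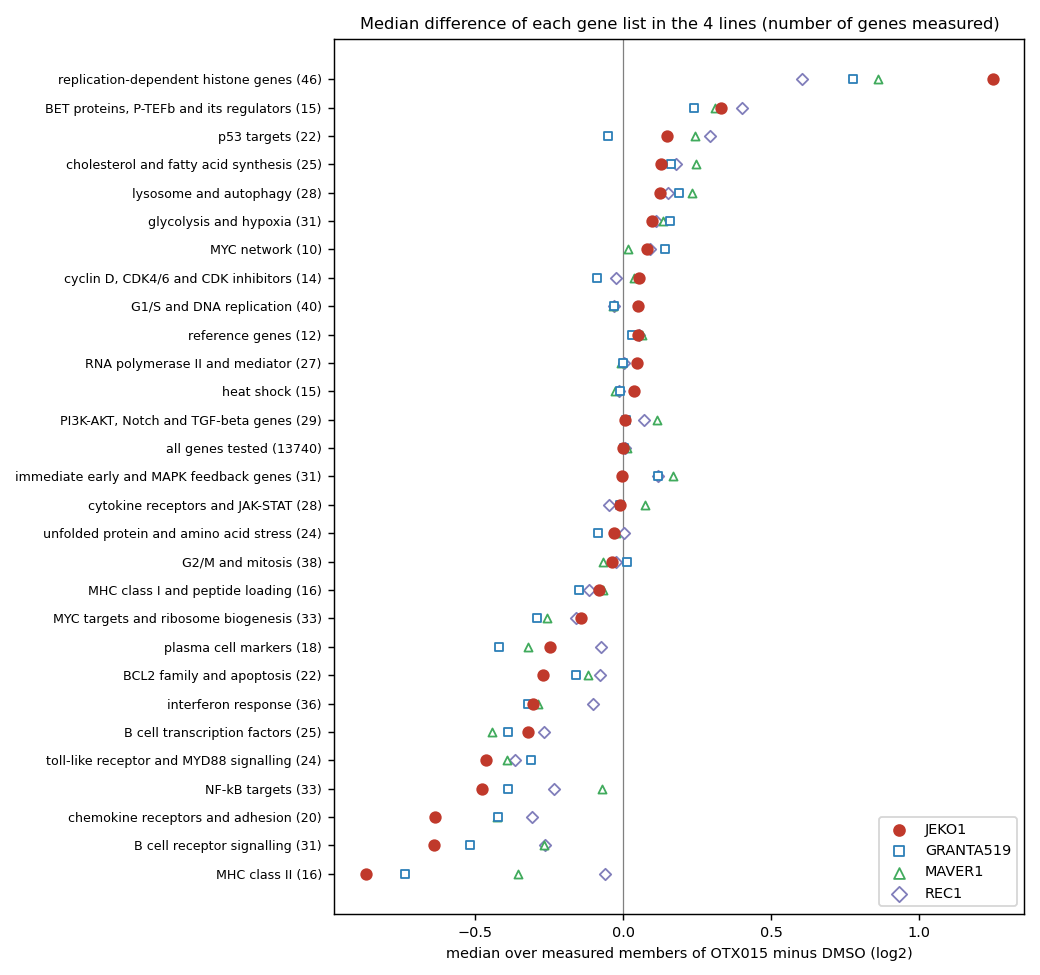
Median OTX015 minus DMSO (log2, horizontal axis) of each gene list with at least 10 measured genes, with 1 symbol per cell line and all genes for comparison. Histone genes lie to the right in all lines, at 1.25 in JEKO1, and MHC class II genes (-0.87) and B cell receptor genes (-0.641) lie to the left in JEKO1.

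Further lists are described by their counts, beside 10.7% of all genes that rose and 13.5% that fell. Toll-like receptor genes had 1 rise and 13 falls of 24 (median -0.464), NF-kB targets 2 and 14 of 33 (-0.476), B cell transcription factors 0 and 10 of 25 (-0.321), and plasma cell genes 0 and 7 of 18 (-0.247). POU2F2, the octamer-binding factor of B cells, changed by -1.45 ± 0.40. PRDM1, the plasma cell regulator, was detected on 0 of 10 JEKO1 arrays, against changes of -1.58 in GRANTA519, -0.95 in MAVER1 and -0.58 in REC1. Apoptosis genes of the BCL2 family gave 2 rises and 6 falls of 22, with BCL2 at -0.53 ± 0.24, against -0.62 in GRANTA519, -0.39 in MAVER1 and -0.39 in REC1, and the proapoptotic BID at -1.23 ± 0.44. Another BID probe gave -1.22, but a further one, also detected on 10 of 10 JEKO1 arrays, gave -0.201. Cell cycle lists gave 7 rises and 4 falls of 40 G1/S genes (1 and 1 without 12 h) and 2 and 7 of 38 G2/M genes (1 and 4 without 12 h). Cytokine receptor and JAK-STAT genes gave 5 and 9 of 28, and p53 targets 8 and 1 of 22, with 3 rises without 12 h and 2 without 8 h. Without 12 h, falls numbered 9 among NF-kB targets and 6 among B cell transcription factors. Of all 13740 genes, 896 rose and 1189 fell without 12 h, and 925 rose without 8 h. Of 12 reference genes 2 rose and 0 fell.

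The response was present at 2 h and shifted with time. At 2, 4, 8, 12 and 24 h, 324, 342, 228, 346 and 345 genes were at least 2-fold higher and 337, 634, 506, 826 and 655 at least 2-fold lower in JEKO1, counts from pairs of arrays with no test. The 12 h pair held the most falls, and its OTX015 array had the highest background of the line (113.2) and the fewest probes detected (35.3%). The OTX015 array at 2 h came next (108.8 and 36.3%). The part of either array in these counts was not tested. In GRANTA519, MAVER1 and REC1 the counts lower at 2 h were 163, 270 and 119 and at 24 h 597, 461 and 418. Across genes, the JEKO1 differences at 2 h correlated with those at later times at r of 0.323 to 0.389, and those at 8, 12 and 24 h with each other at 0.599 to 0.677, as a description of genes that share arrays.

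**Figure D5:**
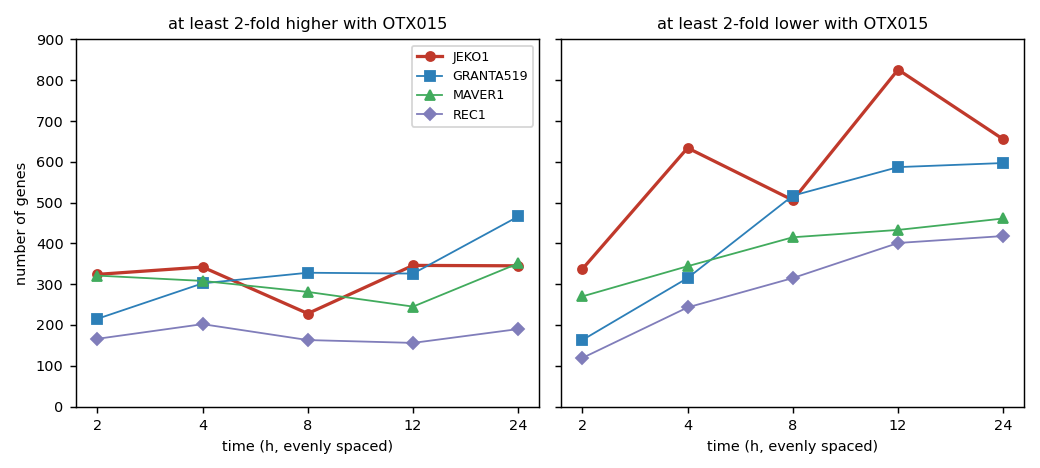
Number of genes at least 2-fold higher and at least 2-fold lower (vertical axis) in each pair of arrays at 2, 4, 8, 12 and 24 h (horizontal axis), by cell line. In JEKO1 falls outnumber rises at every time and peak at 826 at 12 h.

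Among the earliest changes, SERTAD1 and CSRNP2, a nuclear protein with a cysteine- and serine-rich region, rose most at 2 h and less later. SIRPA, an inhibitory receptor that binds CD47, had differences of -3.31, -3.17, -1.19, -1.40 and -1.57 in order of time. CCL3L3, a chemokine whose probe may also read its near copy CCL3, had a signal of 4.72, 5.31, 4.35, 4.34 and 4.36 with OTX015, against 8.14, 6.48, 5.10, 5.81 and 5.91 with DMSO. It was low on all OTX015 arrays, and its DMSO level was itself highest at 2 h. INHBE, a subunit of activin, had 4.62, 5.32, 4.58, 4.84 and 4.87 with OTX015, against 7.89, 6.65, 5.44, 5.63 and 5.55 with DMSO, again with the highest DMSO value at 2 h.

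A slope over the log2 of time was tested for each gene. It was positive for 110 genes (0.801%) and negative for 261 (1.90%), and of the negative ones 198 were falls that grew. Leaving out 1 time at a time gave 48 to 169 and 149 to 229, the lowest without 8 h and without 12 h. These counts used the spread of all 4 lines. With the 5 JEKO1 differences alone limma called 0 genes either way, with 664 positive and 810 negative at an unadjusted p under 0.05. PTPN6, the phosphatase SHP-1 that restrains the B cell receptor, had differences of -0.27, -1.04, -2.14, -4.32 and -4.58, a slope of -1.33 per doubling of time (adjusted p = 0.00035). JCHAIN, which joins IgA and IgM units, changed by 0.01, 0.24, -2.38, -3.32 and -3.56, and SH3TC1 by -0.22, -0.23, -2.76, -4.23 and -4.19, all 3 deepest at 12 or 24 h. TP53INP1, a stress gene under p53, went the other way, at -0.46, 0.11, 0.30, 1.15 and 2.11.

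The slope differed from the mean slope of the other lines for 7 genes upward (0.0509%) and 18 downward (0.131%). CDHR3, PTPN6, GIMAP8 and IGLL1 were steeper downward in JEKO1, by -1.26, -1.02, -0.825 and -0.725 per doubling of time, though CDHR3 was detected on 1 of 30 arrays of the other lines, where no fall could be measured. These counts moved with the times used, with 1 to 16 upward and 1 to 20 downward when 1 time was left out. Without REC1 limma called 0 genes downward, with 735 at an unadjusted p under 0.05. H2AC6 differed by -0.654 (adjusted p = 0.0326), while its own slope in JEKO1 was not called (adjusted p = 0.1005).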

How the data were processed

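The members (10 JEKO1 arrays) and the gene lists were chosen with earlier results of these data known. The deposited values are 1 intensity per probe and array for 47231 Illumina probes, not normalized, exported from GenomeStudio per the submitters' processing notes. The sources used here give no version, control probes or detection p-values. The deposited series matrix, on a log2 scale per its values, served as an alternative. Per array, background was taken from the mode of the log2 signals and removed by the normexp model (offset 16), followed by quantile normalization and log2 (R 4.3.3, limma 3.58.1). A probe counted as detected above the mode plus 2.33 SD of background, and 27188 probes detected on at least 4 of 40 arrays were kept. The probe with the highest mean stood for each of 13740 genes, of which 9648 were measured in all 4 lines. Of all probes 30113 have 1 gene symbol, 8 several and 17110 none, and 30074 were matched to current RefSeq symbols by gene identifier.

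The test was limma's lmFit and eBayes on the 20 differences of OTX015 minus DMSO within line and time, two-sided, with Benjamini-Hochberg adjustment over all genes. The effect in JEKO1 used 1 term per line, the comparison with the other lines used line and time, and the slope used log2 of time within line. Pairing follows the labels. Deviations of the 2 arrays of a pair from their group means correlated at 0.174 to 0.376 in JEKO1 and at 0.0796 to 0.376 over the 20 pairs. Nothing gives separate cultures, and no source used here names the slides, so a slide effect was not analysed here. The number of arrays limits the precision. The fits were tested on simulated data.

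Genes were named by rank: the 12 largest rises and falls of the effect with the same sign at 5 of 5 times; the 12 highest and lowest differences from the other lines among genes measured in all 4 and most extreme in JEKO1; the 8 largest each way detected in JEKO1 alone, moved only elsewhere, moved oppositely, or by slope; the 6 largest at 2 h; and, per list, the 2 highest and lowest effects and the highest and lowest difference. BTK, CIITA, BCL2, BRD2, CDK9, HEXIM1, MLX, HLA-DPB1, HLA-DRA, VIM, MIR939 and C12orf60 fall outside these ranks and were picked with their values known, like those so marked in the text. "At least" folds set the dim arm at the lowest detected signal. The closing section gives the alternatives tried.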

Additional observations from a re-analysis of the deposited data

Results flagged for a closer look

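In 7 of the 93 genes checked, the JEKO1 difference at 1 time lay far from the other 4 times by Dixon's test, and chance alone marks about 1 in 20 groups, 4.6 of 93. EFR3B was 0.072 at 2 h and at least 2.53 later. GLIDR was -0.432 at 4 h, SLC45A3 0.311 at 8 h and TBX15 -0.213 at 24 h. INHBE was -3.26 and SLC30A6 1.76 at 2 h, and UNC5C was 1.68 at 12 h. The OTX015 arrays at 2 h and 12 h had the highest backgrounds in JEKO1.

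The effect in JEKO1 differed from the mean of the other 3 lines, by the test of the difference, for 68 named genes. Values are JEKO1 minus the other lines on the log2 scale. Genes that rose further in JEKO1 were SSTR1 (1.45), PARP16 (1.41), UNC5C (0.872), NNAT (0.825), SNORD30 (0.736) and SLC30A6 (0.714). Histone genes on the same side were H3C15 (1.03), H2BC9 (0.98), H3C14 (0.956), H2BC4 (0.922), H4C16 (0.892), H2BC18 (0.845) and H2BC7 (0.735), against -1.26 for H2AC6. Deeper falls in JEKO1 were those of GIMAP8 (-2.08), IGLL1 (-1.47), PLEK (-1.47), RNGTT (-1.44), ABCB9 (-1.34), CXCR5 (-1.3) and PAFAH2 (-1.26). ARHGEF3 (-1.25), DDX59 (-1.23), MIR155HG (-1.21), MX1 (-1.21) and ARHGAP25 (-1.15) followed. Without the 12 h arrays of every line SNORD30, SLC30A6, H2AC6, IGLL1, CXCR5, DDX59 and MIR155HG were no longer called.

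Genes that fell in the other 3 lines and were not called in JEKO1 were CD300A (1.58), FCRL4 (1.54), NLRP7 (1.45), SLC45A3 (1.19), FCRL3 (1.05), IL7 (0.978), PLD6 (0.928) and MGAT3 (0.901). The tested probes of CD300A, FCRL4, NLRP7, SLC45A3, FCRL3, IL7 and PLD6 were detected on 0 of 10 JEKO1 arrays, so a fall could not be measured there. Another PLD6 probe, detected on 6 of 10, gave an effect of 0.583. FCRL4, PLD6 and MGAT3 were also lost without 12 h. Those that rose in the other lines were IQCN (-1.2), ZBTB42 (-1.15), LSMEM1 (-1.01), TSPOAP1 (-0.982), FAM241A (-0.936), CLYBL (-0.93), NXN (-0.905) and CITED2 (-0.793). The tested CLYBL probe was detected on 0 of 10 JEKO1 arrays. DECR2 differed by -0.73. Of the lymphoid genes in the lists, CCR2 (-1.31), CD27 (-1.22), CD72 (-1.12), HLA-DMA (-1.04), TLR10 (-0.976), IL7R (-0.809), POU2F2 (-0.78), CD79A (-0.774) and DTX1 (-0.492) were lower. Of these 9, CD27 alone was still called without 12 h, and CD27 was lost without background correction and with series matrix values. TLR6 (0.949), PRDM1 (0.823), ITGAL (0.809) and STAT5A (0.785) were higher. PRDM1 and ITGAL were detected on 0 of 10 JEKO1 arrays, so a fall could not be measured there, both were lost without GRANTA519, and ITGAL also without 12 h. Of the growth and stress genes, MYC (0.694), CCND1 (0.693), SLC19A1 (0.537), HSPA4L (0.478), POLR2D (0.467) and ORC1 (0.432) were higher. SLC19A1 lost its call in 10 of 17 alternatives, HSPA4L in 9 of 15 and ORC1 in 8 of 17, and these 3 and POLR2D were lost without 12 h. CCND1 was detected on 0 of 10 JEKO1 arrays and differed by 0.151 (adjusted p = 0.554) without REC1, and MYC was lost without GRANTA519. ZFP36 (-0.813), CTSZ (-0.694), PFKFB4 (-0.654), BID (-0.601), CCND3 (-0.516) and ELL3 (-0.498) were lower, and none of these 6 was called without 12 h.

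The slope over time differed from the other lines by -1.26 per doubling of time for CDHR3, -1.02 for PTPN6, -0.988 for MIR939, -0.825 for GIMAP8, -0.725 for IGLL1 and 0.72 for C12orf60.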

How the results depend on the processing

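Counts are genes higher and lower, and a time left out was left out of all 4 lines. For the JEKO1 effect (1477 and 1860) median scaling gave 765 higher, the 5 JEKO1 differences alone 801 and 1124, and leaving out 1 time 896 to 1701 (925 without 8 h) and 1189 to 1918. Without the replicate block, that is unpaired, 1046 and 1507 genes were called. For JEKO1 minus the other lines (230 and 543) the higher count was 355 without background correction, 358 with offset 50, 149 with median scaling, 374 with series matrix values and 153 among genes measured in all 4 lines, an alternative chosen after seeing the data. Each other line singly gave 19 and 88, leaving out 1 line 128 to 185 and 324 to 423, and leaving out 1 time 69 to 286 and 141 to 564 (103 and 284 without 4 h, 99 and 278 without 8 h). For the slope (110 and 261) median scaling gave 35 and 107, JEKO1 alone 0 and 0 by limma (664 and 810 at an unadjusted p under 0.05), and leaving out 1 time 48 to 169 (59 without 12 h) and 149 to 229. For the difference in slope (7 and 18) the counts were 11 higher without background correction, 12 and 34 with offset 50, 3 and 2 with median scaling, 11 higher with series matrix values, and 0 (398 at an unadjusted p under 0.05) and 5 among genes detected on all 10 JEKO1 arrays. Leaving out 1 time gave 1 to 16 and 1 to 20, and 1 line 1 to 5 and 0 to 7. The cause was not tested. Of 2929 comparisons of a named gene's result with an alternative, 2583 kept direction and call, 345 lost the call and 1 reversed, IGLL1 minus the other lines with all probes averaged (0.266). Changes of 2-fold or more kept a median of 54.1% of their size without background correction, 73.3% with offset 50, 51.5% with series matrix values and 104% with median scaling. Sizes thus depend on how background is handled, though not alike for all genes, and dim genes are limited most. Over the alternatives the effect of H2BC5 ranged from 1.68 to 1.87, and that of MYF6, undetected with OTX015, from -1.86 to -0.713.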
